A study of Mus musculus with 29 samples.

Results

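Sall1, Mef2a, Mef2c, Runx1, Spi1, Bhlhe40, Bhlhe41 and Mitf encode 8 transcription factors of microglia and macrophages, chosen by name from the 19704 genes of the young brain tables. The same 8 are among the 27514 genes of the aged brain tables, and 7 of them, all but Sall1, are listed in the blood tables. Levels are in CPM, the counts of a gene summed over all cells of 1 type in 1 library, scaled to a total of 1000000 counts for that type and library. Drop-seq, a droplet method that sequences the RNA of single cells, was run on C57BL/6J mice after a transient block of the middle cerebral artery (stroke) or sham surgery. The young mice were males of 8 to 10 weeks and gave 4 brain libraries of sham on day 2, 4 of stroke on day 2 and 4 of stroke on day 14. From aged mice (17 to 20 months) came 2 sham libraries on day 2 (1 male, 1 female), 3 stroke libraries on day 2 (1 male, 2 female) and 1 on day 14 (female). Blood leukocytes of young males gave 4 libraries of sham on day 2, 4 of stroke on day 2 and 3 of stroke on day 14. Each brain library pools 4 or 5 hemispheres, the injured side for stroke, digested in the presence of actinomycin D and other inhibitors and sorted for CD45high cells, microglia and endothelial cells, so the sort sets the mix of types. No day 14 sham group is among the samples, so day 14 was compared with the day 2 sham and time and surgery cannot be told apart there.

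The identity of a tissue macrophage is held by a few factors that act together on its enhancers. PU.1, made from Spi1, opens chromatin in all myeloid cells. RUNX1 works beside it from the first blood progenitors on, and the MEF2 factors bind the same enhancers. SALL1 is a zinc finger repressor that, among macrophages, is known from microglia. BHLHE40 and BHLHE41 are related E-box repressors that are also part of the circadian clock and are known from resident macrophages, and MITF, a relative of TFEB, drives lysosomal genes.

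In GRCm38 with GENCODE vM21, Sall1 (ENSMUSG00000031665) lies on chr8:89027235-89044162 on the minus strand and Mef2a (ENSMUSG00000030557) on chr7:67231163-67372858 on the minus strand. Mef2c (ENSMUSG00000005583) lies on chr13:83504034-83667080 on the plus strand and Runx1 (ENSMUSG00000022952) on chr16:92601466-92826149 on the minus strand. Spi1 (ENSMUSG00000002111) lies on chr2:91082390-91115756 on the plus strand. Bhlhe40 (ENSMUSG00000030103) at chr6:108660629-108666925 on the plus strand, Bhlhe41 (ENSMUSG00000030256) at chr6:145858243-145865558 on the minus strand and Mitf (ENSMUSG00000035158) at chr6:97807052-98021349 on the plus strand share a chromosome.

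RefSeq promoters of GRCm38.p6 were matched for 6 of the 8 genes, with 13 start sites in all. The 250 bases before each start were searched on both strands for the E-box CACGTG that the BHLHE and MITF families bind (present in 6.02% of the same window of 32851 promoters), the RUNX core TGTGGT (14%), the PU.1 element GAGGAAGT (2.44%) and the MEF2 element (3.2%). Of the windows searched, 3 held a match, and they are printed because each joins a member's promoter to the motif of a family that holds a member. The capitals mark the motif and the strand is that of the gene. A match is only these letters in this place. The Runx1 match begins 71 bases before that start at chr16:92826128-92826157, the Bhlhe41 match 153 bases before at chr6:145865556-145865585, and the Mitf match, which reads TGTGGT on the other strand, 81 bases before at chr6:97806965-97806994.
Runx1, E-box: catcacttaagtCACGTGattggcaagagc
Bhlhe41, E-box: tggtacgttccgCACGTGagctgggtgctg
Mitf, RUNX core: tgcccaggcggaACCACAaatcccagggcg
The whole 250 bases before the start of Mef2a (chr7:67372859-67373108, minus strand, 61.6% G and C) are printed because Mef2a is the member with the lowest adjusted p after stroke on day 2. They held none of the 4 motifs.
Mef2a: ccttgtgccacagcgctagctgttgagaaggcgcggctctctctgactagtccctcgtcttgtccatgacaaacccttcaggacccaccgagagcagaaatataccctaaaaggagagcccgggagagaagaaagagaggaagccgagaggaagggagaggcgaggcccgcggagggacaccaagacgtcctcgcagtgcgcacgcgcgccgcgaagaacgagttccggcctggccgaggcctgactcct

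The 18 brain libraries held 55268 cells, 1143 to 5121 a library, and the median cell of a library had 321 to 1363 counts. At most 3 cell barcodes were shared by any of the 153 library pairs. Cell types are those of the deposited annotation, whose short codes are read here through marker genes: Mg as microglia, BAM as border-associated macrophages, MdC as monocyte-derived cells and DC as dendritic cells. Each type with the exception of DC had its own marker list as the highest of all lists. In DC the monocyte-derived list summed to 3914 CPM and the dendritic list to 1455 CPM.

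The microglia of young day 2 stroke library 3 went against their label. That library gave 58 microglia and 26321 counts, against 2093 to 3293 microglia in the sham libraries, and the 6 microglial markers summed to 817 CPM there. The other 3 day 2 libraries stood at 10368.8 to 12519 CPM, sham at 14646 to 21292 CPM and day 14 at 9801.5 to 13733 CPM. P2ry12, a purinergic receptor of microglia, was at 3.25 CPM in library 3 and at 992 to 1291 CPM in the other day 2 libraries. The 6 monocyte-derived markers summed to 849 CPM in its microglia, above their own microglial sum. With so few counts a level of 0 there allows up to 114 CPM, so low levels in this library are only loosely placed. The fold changes of the 8 factors between the young groups of microglia are therefore, where they use day 2, given with and without this library, and the microglial means over the other 11 libraries stand beside those over 12.

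Sall1, Bhlhe41 and Mef2c had higher levels in microglia than in the other macrophages in at least 11 of 12 young libraries, Bhlhe40 was highest in dendritic cells among the 4 macrophage and dendritic types, and Spi1 and Runx1 were spread across the myeloid types. The levels that follow are means over the young brain libraries, and their order between types is a description with no test. Sall1 stood at 95.5 CPM ± 77.8 (SD, n = 12) in microglia, against 0.905 CPM ± 3.10 in border-associated macrophages, 1.75 CPM ± 3.61 in monocyte-derived cells and 0.214 CPM ± 0.740 in dendritic cells. It was higher in microglia than in each of those 3 types in 11 of 12 libraries, and the remaining library was day 2 library 3, where it was 0 in all 4 types. Among those 3 types the Sall1 levels differ by less than their spread. Over the 11 libraries other than day 2 library 3 the microglial means of Sall1, Bhlhe41, Mef2c and Mef2a were 104, 124, 708 and 711 CPM (SD 75.3, 37.3, 279 and 530, n = 11). Those of Runx1, Spi1, Mitf and Bhlhe40 were 94.3, 315, 55.7 and 7.78 CPM (SD 34.1, 60.5, 28.9 and 10.47, n = 11).

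Bhlhe41 was also highest in microglia among these 4 types, at 113 CPM ± 50.4 in microglia, 21.9 CPM ± 19.8 in border-associated macrophages, 11.7 CPM ± 13.5 in monocyte-derived cells and 1.13 CPM ± 1.68 in dendritic cells (SD, n = 12). Bhlhe40, its paralog, ran the other way. It stood at 8.00 CPM ± 10.0 in microglia, 26.0 CPM ± 33.0 in border-associated macrophages, 106 CPM ± 47.7 in monocyte-derived cells and 314 CPM ± 74.8 in dendritic cells. Dendritic cells were above the other 3 types in each of the 12 libraries, and monocyte-derived cells were above microglia in each. NK cells had 305 CPM ± 145 (SD, n = 6), which differs from dendritic cells by less than the spread, and T cells 180 CPM ± 135 (SD, n = 11).

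Mef2c stood at 650 CPM ± 332 in microglia, 306 CPM ± 182 in border-associated macrophages, 74.1 CPM ± 49.7 in monocyte-derived cells and 107 CPM ± 62.6 in dendritic cells (SD, n = 12). Microglia were above monocyte-derived cells in 12 of 12 libraries, and so were border-associated macrophages. B cells, where MEF2C is also known to act, had 550 CPM ± 274 (SD, n = 9), which differs from microglia by less than the spread. Mef2a stood at 669 CPM ± 527 in microglia, 405 CPM ± 154 in border-associated macrophages, 365 CPM ± 71.8 in monocyte-derived cells and 206 CPM ± 93.3 in dendritic cells. Microglia were above dendritic cells in 12 of 12 libraries for Mef2a, but above border-associated macrophages and above monocyte-derived cells in only 8 of 12 each.

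Spi1 stood at 820 CPM ± 285 in granulocytes, 438 CPM ± 119 in monocyte-derived cells, 398 CPM ± 154 in dendritic cells, 339 CPM ± 103 in microglia and 334 CPM ± 129 in border-associated macrophages (SD, n = 12). Granulocytes were above the other 4 types in each of the 12 libraries, and endothelial cells, which lack PU.1, had 4.07 CPM ± 6.46. Runx1 stood at 115 CPM ± 63.1 in border-associated macrophages, 89.2 CPM ± 37.0 in microglia, 61.6 CPM ± 31.7 in monocyte-derived cells and 58.0 CPM ± 28.9 in dendritic cells, and microglia were above border-associated macrophages in 6 of 12 libraries. Mitf stood at 53.0 CPM ± 29.1 in microglia, 41.8 CPM ± 44.8 in border-associated macrophages, 35.9 CPM ± 26.6 in monocyte-derived cells and 5.14 CPM ± 4.66 in dendritic cells. For Runx1 the neighbours in this order differ by less than their spread, and for Mitf the same holds among the first 3 types.

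**Figure D1:**
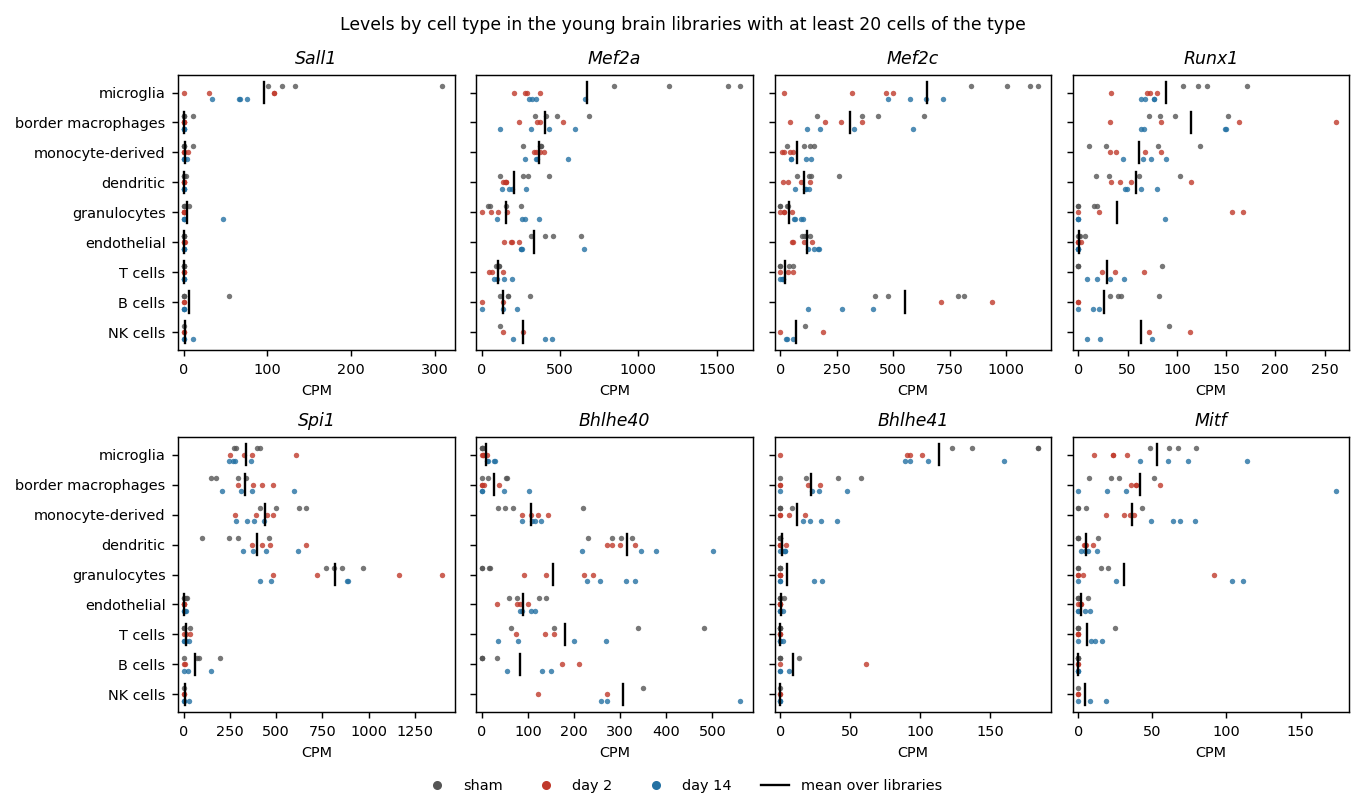
Level of each gene in CPM (horizontal axis, linear) for 9 cell types of the young brain libraries with at least 20 cells of the type. Each point is 1 library (grey sham, red day 2, blue day 14) and the black line is the mean over libraries. Sall1 and Bhlhe41 are highest in microglia (95.5 and 113 CPM), Bhlhe40 is low there (8.00 CPM) and Spi1 is highest in granulocytes (820 CPM).

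Blood monocytes offered a comparison outside the brain, from tables that were deposited separately, so the levels are set side by side only. Blood monocytes (n = 11 libraries) had Bhlhe41 at 0.778 CPM ± 1.45 and Bhlhe40 at 38.9 CPM ± 18.4. Mef2c stood there at 114 CPM ± 34.2, Mef2a at 450 CPM ± 106, Mitf at 29.0 CPM ± 18.4 and Runx1 at 44.6 CPM ± 18.8. Spi1 stood at 731 CPM ± 93.4 in blood monocytes and at 1343 CPM ± 128 in blood neutrophils. Blood B cells had the highest Mef2c of the blood types, at 791 CPM ± 115, while neutrophils had 0.0508 CPM ± 0.113.

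In microglia of the young brain Mef2a, Mef2c, Mitf and Runx1 fell on day 2 after stroke, and on day 14 Mef2a was lower and Bhlhe40 higher than in sham. The test was edgeR's quasi-likelihood test on summed counts over all genes, with Benjamini-Hochberg adjustment and TMM scaling, and an adjusted p under 0.05 counts as called. On day 2 against sham it called 4 of the 8 factors, all lower, where 31.4% of 10145 genes were called. For day 14 against sham it called 2 of 8 (1 higher, 1 lower) where 15.2% were called, and between day 14 and day 2 it called 2 of 8, both higher, where 6.93% were called. Both day 14 counts include Bhlhe40, which passed the filter on low counts only through the day 14 libraries, where it was high. Both comparisons with sham use the same 4 sham libraries. The share called among 8 genes is a description, and nothing is read from it about the factors as a group.

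Fewer cells of a type and less RNA per cell cannot be told apart in summed counts, and TMM scaling moves the fold changes relative to CPM. The median log2 fold change over all genes was -0.05 on day 2 with TMM and -0.22 without, and on day 14 against sham -0.04 with and -0.49 without. Between day 14 and day 2 it was 0.10 with TMM and -0.19 without. Fold changes below are TMM-scaled log2 values with their standard error (SE).

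Mef2a, a MEF2 gene, stood at 844, 1194, 1573 and 1649 CPM in sham libraries 1 to 4. On day 2 it was at 285, 373, 203 and 278 CPM, and on day 14 at 321, 302, 347 and 660 CPM. Every stroke library was below every sham library, and day 14 library 4 was the highest of the stroke libraries. The log2 fold change on day 2 was -2.03 (SE 0.34, edgeR adjusted p = 0.00093), a 4.07-fold lower level, and -1.91 (adjusted p = 0.0022) without day 2 library 3. It was called in all 22 alternatives run, of which 1 used DESeq2 in place of edgeR and 1, a minimum of 50 cells, left out no microglial library and gave the same value. On day 14 it was -1.25 (SE 0.32, edgeR adjusted p = 0.020) against sham. Between day 14 and day 2 it was 0.78 (SE 0.33, edgeR adjusted p = 0.18), and 0.65 (adjusted p = 0.281) without day 2 library 3.

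The day 14 call of Mef2a against sham turned on single libraries: edgeR's adjusted p was 0.061 without sham library 3, 0.067 without sham library 4, 0.069 without day 14 library 1 and 0.064 without day 14 library 2. Its size moved less, the log2 fold change running from -1.57 to -1.11 with a library left out. With the depth of the library's endothelial cells as a covariate, an alternative chosen after the data were seen, the log2 fold change was -0.91 (edgeR adjusted p = 0.061). Mef2a was also high outside microglia in some of the same libraries. Day 14 library 4 had 655 CPM in endothelial cells against 250 to 259 CPM in the other 3 day 14 libraries, and sham library 3 had 632 CPM there. The median microglial cell had 648, 500, 375 and 330 counts in sham libraries 1 to 4, the reverse of their order in Mef2a. On day 14 it had 2042, 593, 1939 and 433 counts, with library 4 the lowest. On day 2 it had 793, 530, 338 and 1489 counts, and there library 3, the lowest, also had the lowest Mef2a. The part of depth in these levels was not tested further.

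Mef2c, the second MEF2 gene, stood at 1002, 842, 1102 and 1141 CPM in sham, at 469, 498, 16.7 and 318 CPM on day 2, and at 645, 572, 477 and 720 CPM on day 14. All stroke libraries were below all sham libraries, and the 16.7 CPM is that of day 2 library 3. On day 2 the log2 fold change was -1.34 (SE 0.45, edgeR adjusted p = 0.038), and without library 3 it was -1.08 (adjusted p = 0.0030). The edgeR call was lost, with adjusted p-values of 0.064 to 0.140, without sham library 2, 3 or 4, without day 2 library 1 or 4, and with the depth covariate. On day 14 the log2 fold change was -0.30 (SE 0.44, edgeR adjusted p = 0.675) against sham. Between day 14 and day 2 it was 1.04 (SE 0.45, edgeR adjusted p = 0.19), and 0.77 (adjusted p = 0.042) without day 2 library 3, where 6.63% of all genes were called. Fitted to the 2 stroke groups with the library number as a block, it was 1.14 (SE 0.33, edgeR adjusted p = 0.013). That pairing was read from these same data, and in microglia the pair of number 1 correlated at only 0.0671. DESeq2 called Mef2c too (adjusted p = 0.030), as did edgeR on cells of at least 800 counts (0.76, adjusted p = 0.026).

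Runx1, a partner of PU.1 at myeloid enhancers, stood at 171, 130.5, 122 and 107 CPM in sham, at 73.1, 79.9, 32.8 and 69.2 CPM on day 2, and at 76.3, 63.7, 67.9 and 77.1 CPM on day 14. All 8 stroke libraries were below all 4 sham libraries, although the value of day 2 library 3 rests on few counts. On day 2 its log2 fold change was -0.72 (SE 0.21, edgeR adjusted p = 0.022), and -0.66 (adjusted p = 0.024) without day 2 library 3. The Runx1 call was lost without sham library 2 (edgeR adjusted p = 0.055), sham library 3 (0.064) or day 2 library 1 (0.096). It was also lost with no filter on low counts and with only the 2 groups compared. The day 2 value stayed negative in these. On day 14 against sham the log2 fold change of Runx1 was -0.43 (SE 0.20, edgeR adjusted p = 0.15), with calls only by DESeq2 (-0.58, adjusted p = 0.032) and without TMM (-0.89, edgeR adjusted p = 0.0060). From day 2 to day 14 it was 0.28 (SE 0.21, edgeR adjusted p = 0.487), and 0.21 (adjusted p = 0.596) without day 2 library 3.

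Spi1 stood at 412, 394, 274 and 284 CPM in sham, at 328, 249, 609 and 367 CPM on day 2, and at 279, 265, 364 and 247 CPM on day 14. The groups overlapped and the highest value, 609 CPM, was that of day 2 library 3. The log2 fold change of Spi1 was 0.19 (SE 0.25, edgeR adjusted p = 0.59) on day 2 and 0.22 (SE 0.24, adjusted p = 0.55) on day 14. Without day 2 library 3 the day 2 value was 0.08 (edgeR adjusted p = 0.83), and the day 14 value was negative (-0.24) without TMM. For Spi1 the value between the stroke days was 0.04 (SE 0.25, edgeR adjusted p = 0.969), and 0.13 (adjusted p = 0.838) without day 2 library 3.

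Sall1 stood at 308, 100.2, 117 and 133 CPM in sham, at 107, 107, 0 and 30.6 CPM on day 2, and at 66.8, 75.4, 33.8 and 66.3 CPM on day 14. The 0 was day 2 library 3, whose 26321 microglial counts allow up to 114 CPM. Day 2 overlapped sham, and the 4 day 14 libraries were all below sham. The log2 fold change was -0.96 (SE 0.47, edgeR adjusted p = 0.13) on day 2 and -0.96 (SE 0.44, adjusted p = 0.15) on day 14. Without day 2 library 3 the day 2 value was -0.86 (edgeR adjusted p = 0.16). Without sham library 1, the highest, these were -0.55 and -0.54 (edgeR adjusted p = 0.36 and 0.39). On day 14 it was called only without TMM (-1.43, edgeR adjusted p = 0.034). Sall1 was called on day 2 only with the library number as a block (-1.14, edgeR adjusted p = 0.042), although the sham libraries share only a number with the stroke libraries. For Sall1 the value between the stroke days was 0.0021 (SE 0.48, edgeR adjusted p = 0.999), and -0.11 (adjusted p = 0.926) without day 2 library 3.

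Bhlhe41 stood at 123, 137, 184 and 184 CPM in sham, at 101, 90.2, 0 and 93.0 CPM on day 2, and at 89.0, 93.0, 105 and 160 CPM on day 14. The day 2 libraries were all below sham and the day 14 libraries overlapped it. The log2 fold change was -0.65 (SE 0.32, edgeR adjusted p = 0.13) on day 2, and -0.54 (adjusted p = 0.12) without library 3. DESeq2 called it on day 2 (adjusted p = 0.029), and on day 14 its edgeR value was -0.03 (SE 0.31, adjusted p = 0.96). Its value between the stroke days was 0.62 (SE 0.32, edgeR adjusted p = 0.29), and 0.49 (adjusted p = 0.289) without day 2 library 3.

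Mitf, the lysosomal regulator, was lower on day 2 and higher again on day 14. It stood at 48.3, 67.1, 61.4 and 79.1 CPM in sham, at 32.9, 10.2, 23.04 and 23.4 CPM on day 2, and at 60.6, 41.5, 73.8 and 114 CPM on day 14. Day 2 was below both other groups with no overlap, although the value of day 2 library 3 rests on few counts, and sham and day 14 overlapped. The log2 fold change on day 2 against sham was -1.28 (SE 0.38, edgeR adjusted p = 0.022), and -1.30 (adjusted p = 0.034) without library 3. It was lost, with edgeR adjusted p-values of 0.053 to 0.139, without sham library 2, 3 or 4, without day 2 library 2 or 4, and with the depth covariate.

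Between day 14 and day 2 the log2 fold change of Mitf was 1.91 (SE 0.38, edgeR adjusted p = 0.0097), a 3.76-fold higher level, and 1.92 (adjusted p = 0.018) without day 2 library 3. It was called in all 23 alternatives run, DESeq2 and the minimum of 50 cells among them. On day 14 against sham it was 0.63 (SE 0.33, edgeR adjusted p = 0.205) with TMM and 0.19 without.

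**Figure D2:**
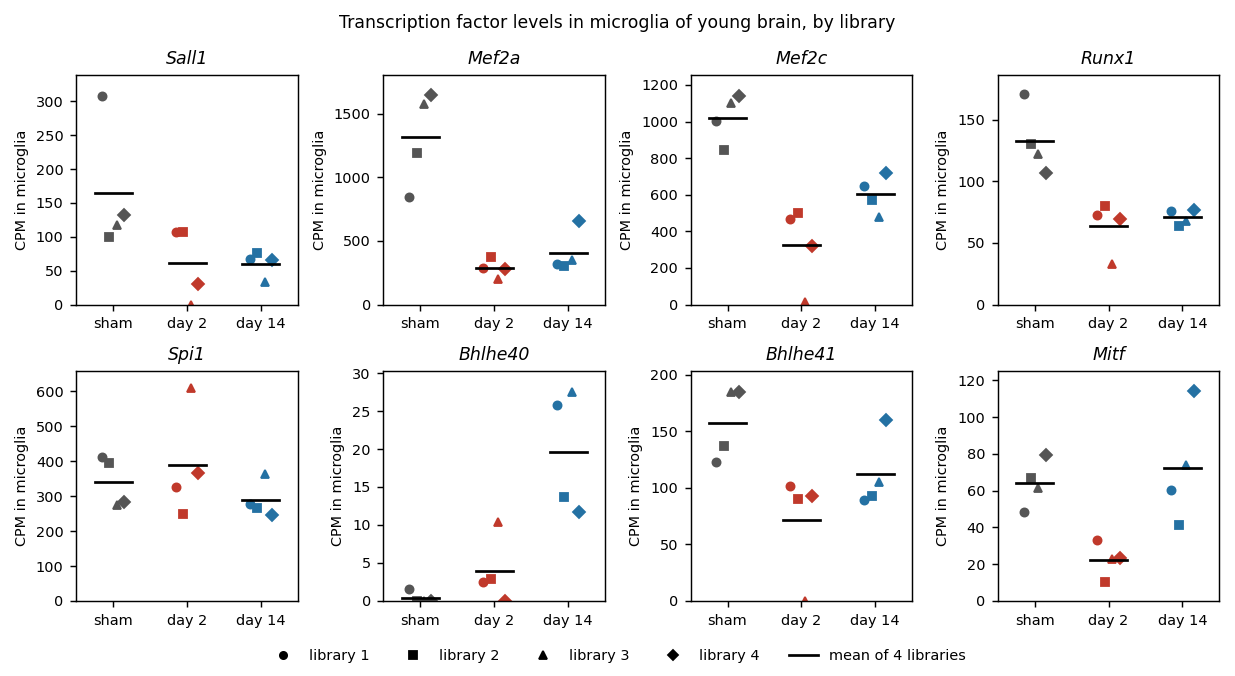
Level of each gene in CPM in microglia (vertical axis, linear) in the 4 libraries of young sham, stroke day 2 and stroke day 14, with the group mean as a line and the library number as the symbol. Mef2a runs from 844 to 1649 CPM in sham and from 203 to 373 CPM on day 2, Mitf from 10.2 to 32.9 CPM on day 2 and from 41.5 to 114 CPM on day 14, and day 2 library 3 (red triangle) is at 0 CPM for Sall1 and Bhlhe41.

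Bhlhe40 was at or near 0 in microglia before day 14. It stood at 1.52, 0, 0 and 0 CPM in sham, at 2.53, 2.85, 10.4 and 0 CPM on day 2, and at 25.8, 13.7, 27.5 and 11.7 CPM on day 14. All 4 day 14 libraries were above all 8 others as listed. The microglia of day 2 library 3 held 26321 counts, where a count of 0 allows up to 114 CPM, so that library cannot be ordered against day 14. Summed over libraries the estimated counts came to 2.47 in sham, all in library 1, to 4.61 on day 2 and to 130.2 on day 14, or 0.441, 1.046 and 20.8 CPM. The ratio of these pooled levels was 47.2 for day 14 to sham and 19.9 for day 14 to day 2. An exact interval needs whole counts, and with the sums rounded to 2, 5 and 130 the ratios were 58.2 (exact 95% interval 15.8 to 485) and 18.3 (7.65 to 57.3), the intervals covering counting error only. The ratio to day 2 without day 2 library 3 was 21.03, and 22.8 (8.68 to 84.8) from rounded sums.

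The fitted log2 fold change of Bhlhe40 on day 14 was 5.92 against sham (SE 0.86, edgeR adjusted p = 0.00044) and 4.02 against day 2 (SE 0.84, adjusted p = 0.012). It was called against sham in all 22 alternatives, DESeq2 among them, but its size moved: it was 7.93 without sham library 1, which leaves no sham counts, 4.35 with each value rounded up and 4.44 on cells of at least 800 counts, and it ran from 5.52 to 7.93 with a library left out. Against day 2 it was 2.66 with each value rounded up and 4.97 on cells of at least 800 counts. Against day 2 the edgeR call was lost without day 2 library 4 (log2 fold change 3.03, adjusted p = 0.053) and kept without day 2 library 3 (3.94, adjusted p = 0.029). On day 2 against sham its log2 fold change was 1.91 (SE 1.23, edgeR adjusted p = 0.24), and 2.01 (adjusted p = 0.24) without day 2 library 3. Of 21 alternatives 1 called it, each value rounded up (1.69, edgeR adjusted p = 0.035). With a library left out it ran from 1.296 (without day 2 library 1) to 3.97 (without sham library 1, edgeR adjusted p = 0.082).

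Monocyte-derived cells carried more Bhlhe40 than microglia, so their markers are given beside it. On day 14 the Bhlhe40 level of microglia was 18.1% of that in monocyte-derived cells. For 5 of the 6 monocyte-derived markers the same share was far lower: 0.354% for Ccr2, a chemokine receptor of monocytes, 0.540% for Ly6c2, 0.0899% for Chil3, 0.470% for Plac8 and 1.76% for Ms4a4c. Fn1, which encodes fibronectin, stood at 30.5%. Their sum in microglia ran from 31.1 to 156 CPM on day 14, from 24.5 to 849 CPM on day 2 and from 0.000209 to 21.4 CPM in sham. Dendritic cells, with a mean of 360 CPM on day 14, and granulocytes carried more Bhlhe40 than monocyte-derived cells. Markers of those types were not set beside it, and the part of RNA from other cells in the microglial level was not tested.

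**Figure D3:**
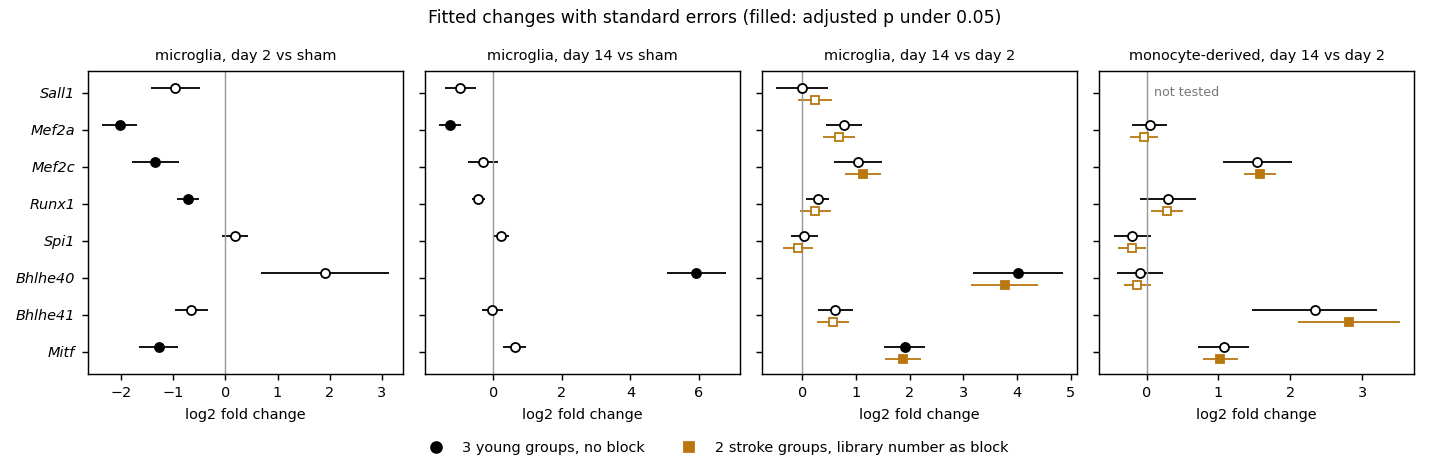
Fitted log2 fold changes (horizontal axis) with standard errors as lines, for the 8 genes in 3 comparisons of microglia and 1 of monocyte-derived cells. Circles are fits to the 3 young groups and squares are fits to the 2 stroke groups with the library number as a block, and filled symbols have an adjusted p under 0.05. Mef2a on day 2 (-2.03) and Bhlhe40 on day 14 (5.92) lie farthest from 0 in their panels, and in monocyte-derived cells only the blocked fit has filled symbols.

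Microglial subtypes of the deposited annotation divided the groups. Mg1 and Mg2 held 53.0% and 37.8% of sham microglia, Mg4 held 52.0% on day 2 and Mg3 held 69.6% on day 14 (means over 4 libraries). In day 2 library 3, 56 of the 58 microglia were Mg4. The subtypes were clustered on these same genes, so the levels within them are a description. In Mg1, Mef2a stood at 800, 1187, 1607 and 1691 CPM in sham, at 590, 724 and 660 CPM in day 2 libraries 1, 2 and 4, and at 582, 878 and 1405 CPM in day 14 libraries 2, 3 and 4. Within Mg1 the day 2 values of Mef2a were all below sham and the day 14 values overlapped it.

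In Mg4, Mef2a stood at 249, 305, 216 and 233 CPM on day 2, and at 977, 826 and 982 CPM in sham libraries 1, 2 and 4. Mef2c in Mg4 stood at 349, 340, 18.1 and 243 CPM on day 2 and at 942 to 1310 CPM in those sham libraries. As a description, the day 2 levels of Mef2a were below the sham levels listed within Mg4 as well as within Mg1, and those of Mef2c within Mg4. Bhlhe40 in Mg3 stood at 28.1, 17.4, 27.3 and 10.7 CPM on day 14 and was listed at 0 in the 3 day 2 libraries and 2 sham libraries that held enough Mg3 cells. Over all libraries Mg3 held only 133 cells on day 2 and 93 in sham. A count of 0 in so few cells does not show that Bhlhe40 was absent from Mg3 before day 14. In Mg7, a smaller subtype with 5.97% of day 14 microglia, Bhlhe40 stood at 19.9, 8.95, 34.4 and 37.2 CPM on day 14.

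For monocyte-derived cells day 14 was set against day 2, since sham gave only 43 to 99 of them a library. Mef2c, Mitf and Bhlhe41 had higher levels on day 14 than on day 2 in most libraries, and whether they were called depended on the fit. As a description, every day 14 library was above every sham library as listed for Mitf and Bhlhe41, while for Mef2c day 14 overlapped sham. A count of 0 in these sham cells allows up to 26.8 CPM in library 1 and up to 164 CPM in library 4. The order of sham and day 14 is thus only loosely placed, and the share of all genes without overlap is not known. The edgeR fit to the 3 young groups called 0 of the 7 factors tested there, where 1.79% of 8080 genes were called. Of all genes, 948 had an unadjusted p under 0.05 in that fit, and DESeq2 called 421 genes, Mitf among them. Sall1 was too low to be tested.

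Day 2 and day 14 libraries of the same number deviated together in monocyte-derived cells, with correlations of 0.268, 0.758, 0.67 and 0.349 for numbers 1 to 4. Pairs of different numbers ran from -0.641 (day 2 library 2 with day 14 library 3) to 0.528 (day 2 library 4 with day 14 library 3). The highest of these stood above the pairs of number 1 and number 4. The pairing was thus read from these same data, and calls that use it are not independent of them. Fitted to the 2 stroke groups with the library number as a block, an alternative chosen after the data were seen, edgeR called 608 of 8826 genes (6.89%) and 3 of the 7 factors. The 3 factors were also called with the block over all 3 young groups, where 469 of 8080 genes were called.

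Mef2c stood at 55.5, 43.5, 14.9 and 10.1 CPM on day 2 and at 137, 116, 49.2 and 49.9 CPM on day 14 in monocyte-derived cells. It was higher on day 14 in 4 of 4 pairs, although the groups overlapped. The mean of Mef2c was 103.3 CPM in the few sham cells, 30.97 CPM on day 2 and 88.04 CPM on day 14. Sham overlapped both stroke groups. The day 14 level of Mef2c is thus higher than day 2 only, and is not shown to exceed sham. Without the block its log2 fold change was 1.54 (SE 0.48, edgeR adjusted p = 0.15), and with it 1.58 (SE 0.23, adjusted p = 0.00083). Mitf stood at 37.8, 30.8, 34.8 and 18.8 CPM on day 2 and at 68.3, 49.3, 64.0 and 78.8 CPM on day 14, with no overlap. Its log2 fold change was 1.07 (SE 0.35, edgeR adjusted p = 0.18) without and 1.03 (SE 0.24, adjusted p = 0.023) with the block.

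Bhlhe41 in monocyte-derived cells stood at 6.04 and 17.4 CPM in day 2 libraries 1 and 2 and at less than 1 count in day 2 libraries 3 and 4. On day 14 it stood at 40.5, 16.5, 29.1 and 21.6 CPM, above day 2 in 3 of 4 pairs, with library 2 the exception. Its log2 fold change was 2.34 (SE 0.87, edgeR adjusted p = 0.26) without and 2.82 (SE 0.71, adjusted p = 0.030) with the block. Bhlhe41 was called without the block when day 2 library 2 was left out (3.68, edgeR adjusted p = 0.022). Microglial markers in monocyte-derived cells summed to 596, 655, 398 and 270 CPM in day 2 libraries 1 to 4 and to 1807, 1258, 1353 and 289 CPM on day 14. Of the 6 markers, 0 to 3 were at 0 on day 2 and 0 to 5 on day 14. In library numbers 1 and 3 the sum, Mef2c, Mitf and Bhlhe41 were all higher on day 14. In number 2 the sum, Mef2c and Mitf were higher and Bhlhe41 was not. In number 4 the sum hardly moved, while Mef2c, Mitf and Bhlhe41 were higher on day 14. The part of these markers in the higher day 14 levels of Mef2c, Mitf and Bhlhe41 was not tested.

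The subtype MdC6 grew from 2.84% of monocyte-derived cells on day 2 to 34.0% on day 14. In MdC6, Bhlhe41 stood at 71.9, 34.1, 56.9 and 48.4 CPM on day 14, while in MdC5 it stood at 8.81, 0, 8.10 and 6.60 CPM. The other factors gave no call in monocyte-derived cells under either fit. Bhlhe40 stood at 143, 87.8, 122 and 107 CPM on day 2 and at 128, 87.0, 109 and 116 CPM on day 14, Mef2a at 332 to 395 CPM and 277 to 553 CPM, Runx1 at 31.9 to 84.4 CPM and 45.5 to 88.5 CPM, and Spi1 at 279 to 485 CPM and 286 to 433 CPM.

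**Figure D4:**
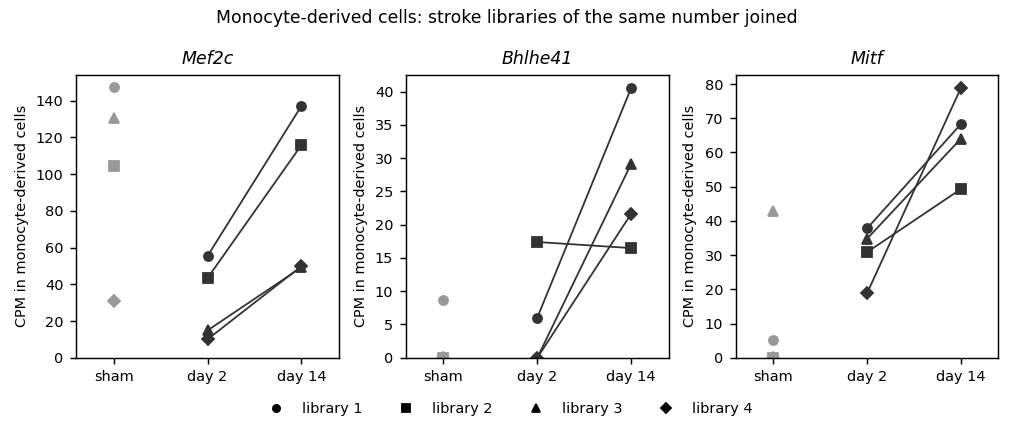
Level of Mef2c, Bhlhe41 and Mitf in CPM in monocyte-derived cells (vertical axis, linear) by library, with stroke libraries of the same number joined by a line. Mef2c and Mitf are higher on day 14 in 4 of 4 pairs and Bhlhe41 in 3 of 4, and sham (grey, 43 to 99 cells a library) is shown for reference.

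Outside microglia and monocyte-derived cells 1 of the factors was called, Mef2a in endothelial cells. There it stood at 314, 405, 632 and 457 CPM in sham, at 186, 142, 194 and 237 CPM on day 2, and at 251, 250, 259 and 655 CPM on day 14. Every day 2 library was below every sham library. The median endothelial cell had 606, 373, 303 and 286 counts in sham libraries 1 to 4. On day 2 it had 1008, 509, 635 and 476 counts, and on day 14 it had 732, 554, 638 and 304 counts. The depth covariate was not run in endothelial cells, and the part of depth in their Mef2a levels was not tested. The log2 fold change on day 2 was -1.14 (SE 0.33, edgeR adjusted p = 0.032), where 13.3% of 5833 genes and 1 of the 3 factors tested were called. The call was lost in 8 of 21 alternatives: without sham library 2, 3 or 4, without any 1 of the 4 day 2 libraries, and with only cells of at least 800 counts. Against sham on day 14 edgeR called 0% of genes in endothelial cells, with 356 at an unadjusted p under 0.05 and 14 called by DESeq2, and the log2 fold change of Mef2a was -0.38 (SE 0.33). From day 2 to day 14, 11.2% of genes were called and none of these 3 factors, with Mef2a at 0.75 (SE 0.33, edgeR adjusted p = 0.15). In the paired fit to the 2 stroke groups Mef2a was called there (0.71, SE 0.22, edgeR adjusted p = 0.037). The log2 fold changes of Bhlhe40 in endothelial cells were -0.41 on day 2, -0.10 on day 14 against sham and 0.31 between the stroke days, and those of Mef2c -0.21, 0.49 and 0.70 (lowest edgeR adjusted p = 0.128).

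In border-associated macrophages edgeR called none of the 3 factors tested (Mef2a, Mef2c and Spi1), where 2.67% of 1313 genes were called on day 2, 0.0762% on day 14 against sham and 0.838% between day 14 and day 2. Mef2a stood there at 340, 412, 683 and 480 CPM in sham, at 371, 520, 351 and 239 CPM on day 2, and at 431, 117, 316 and 598 CPM on day 14, so the groups overlapped. These libraries held only 20 to 282 such cells each. In dendritic cells none of the 5 factors tested (Bhlhe40, Mef2a, Mef2c, Runx1 and Spi1) was called, where 1.01%, 1.53% and 0.893% of 4365 genes were called in the same 3 comparisons. Bhlhe40 in dendritic cells stood at 230 to 325 CPM in sham, 271 to 333 CPM on day 2 and 216 to 502 CPM on day 14, overlapping throughout. Mef2a had means there of 274 CPM in sham and 148 CPM on day 2, and these groups overlapped. Its log2 fold change was -0.81 (SE 0.35, edgeR adjusted p = 0.28).

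Bhlhe40 in granulocytes stood at 0, 17.7, 16.1 and 0 CPM in sham, at 240, 222, 140 and 91.7 CPM on day 2, and at 331, 312, 227 and 256 CPM on day 14. All stroke libraries were above all sham libraries. These are 29 to 169 cells and at most 22 counts of Bhlhe40 a library, and no test across genes was run in granulocytes.

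Whether a change differed between microglia and another type was tested on the difference of log2(CPM + 5) within each library, by a two-sided exact permutation test over libraries. Of 24 such tests, 8 factors in 3 comparisons, 5 had no overlap between groups, at the smallest p that 4 against 4 libraries allow (0.0286). The test was not run over all genes, so the share of all genes without overlap is not known. Nothing is read from this count about the factors as a group. Of these, Sall1 on day 14 against sham is not read as a difference between types, since border-associated macrophages held at most 0.955 counts of Sall1 in any young library. No test passed adjustment, the lowest Benjamini-Hochberg value of these exact tests being 0.137. On day 2 against sham, the change in microglia minus that in border-associated macrophages was -1.80 for Mef2a and -2.14 for Mitf. Without day 2 library 3 these were -1.66 and -2.05, still without overlap, at the smallest exact p of 0.0571 that 3 against 4 libraries allow. Microglia themselves changed by -2.17 for Mef2a and -1.39 for Mitf, and border-associated macrophages by -0.37 and 0.75. Mitf was too low there for the filter of the edgeR test, with 0.130 to 9.30 counts in a sham or day 2 library, and the fit with no filter gave 0.57 (SE 0.70, edgeR adjusted p = 0.779), so its difference between types rests on few counts.

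For day 14 against sham the difference between microglia and border-associated macrophages was -0.83 for Spi1, the microglia changing by -0.23 and the border-associated macrophages by 0.60. These are changes of CPM without TMM. The TMM-scaled edgeR log2 fold changes of Spi1 were 0.22 in microglia and 0.68 in border-associated macrophages, so the microglial direction turned with the scaling. Between day 14 and day 2, Bhlhe40 changed by 1.52 in microglia and by -0.05 in monocyte-derived cells. That difference was 1.58, and 1.85 without day 2 library 3 (exact p = 0.0571, the smallest possible there).

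**Figure D5:**
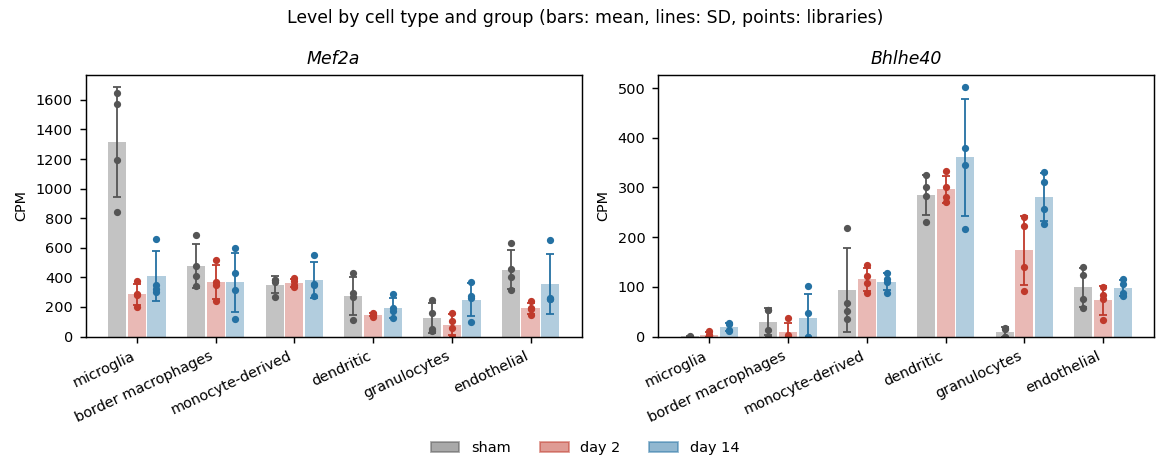
Mean level of Mef2a and Bhlhe40 in CPM (vertical axes, linear, from 0) in 6 cell types of the young brain, by group, with bars as means, lines as the SD and points as the 4 libraries. The mean of Mef2a is 1315 CPM in sham and 285 CPM on day 2 in microglia (312 CPM without day 2 library 3), and it has group means of 349 to 383 CPM in monocyte-derived cells, and among the 6 types shown Bhlhe40 is highest in dendritic cells in sham and on day 2.

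In the aged brain, Mef2a stood at 845 and 950 CPM in sham (female, male) and at 387, 536 and 406 CPM on day 2 (female, male, female). Both sham libraries were above all 3 day 2 libraries, and the log2 fold change was -0.95 (SE 0.38, edgeR adjusted p = 0.22). Sall1 stood at 92.7 and 118 CPM in sham and at 27.9, 47.3 and 58.5 CPM on day 2, also without overlap (log2 fold change -1.24, SE 0.58, edgeR adjusted p = 0.31). Groups of 2 and 3 libraries can easily separate with no change, and the share of all genes without overlap is not known. Nothing is therefore read from a lack of overlap in the aged libraries. Mef2c stood at 787 and 627 CPM in sham and at 463, 436 and 373 CPM on day 2 (-0.66, SE 0.54, edgeR adjusted p = 0.61). None of the 7 factors tested was called by edgeR in the aged microglia, where 2.3% of 11096 genes were called, while DESeq2 called Mef2a. Bhlhe40 was too low to be tested there.

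The remaining factors were not called by edgeR in aged microglia either. Runx1 stood at 116 and 107 CPM in aged sham and at 111, 109 and 89.6 CPM on day 2, and Spi1 at 351 and 324 CPM and at 305, 320 and 343 CPM. Bhlhe41 stood at 206 and 184.5 CPM in sham and at 160, 141 and 132 CPM on day 2, without overlap, from which again nothing is read. Mitf overlapped, at 77.1 and 43.6 CPM in sham and 58.9, 34.4 and 24.0 CPM on day 2. In the single aged day 14 library Bhlhe40 stood at 11.6 CPM, Mef2a at 537 CPM and Mitf at 90.8 CPM.

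Whether stroke acted differently by age was tested as an interaction on day 2. For Mef2a the interaction was 1.0497 (SE 0.49, edgeR adjusted p = 0.77), or 0.90 (adjusted p = 0.751) without young day 2 library 3, that is a smaller fall in aged than in young microglia, and it was not called. The edgeR interaction test called 0% of genes, with 623 at an unadjusted p under 0.05 and 0 called by DESeq2. The young group is all male and the aged group mixed. With sex as a covariate the interaction of Mef2a was 1.09 (SE 0.52, edgeR adjusted p = 0.926) and 0 genes were called, with 436 at an unadjusted p under 0.05. With 2 aged sham libraries a change of the size seen for Mef2a was not called.

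Genes tied to these factors were followed in lists that hold none of the 8, and each count of calls is a description to be read beside the share called over all genes tested (31.4% on day 2 and 15.2% on day 14 against sham, or 27.5% and 14.4% without day 2 library 3). The lists were chosen with earlier results of these data known, so nothing is read from a share above that of all genes. Of 10 genes known to depend on Sall1 or to mark microglia, 3 fell on day 2 and none rose, about the 31.4% of all genes (median log2 fold change -0.96, all genes -0.05). Siglech fell by 1.77, P2ry12 by 1.76 and Slc2a5, a fructose transporter, by 1.06 on the log2 scale. Siglech, P2ry12 and Slc2a5 are also among the microglial markers that were low in day 2 library 3. Without that library 5 of the 10 fell (median -0.69, all genes 0.01), with P2ry12 at -1.42, Siglech at -1.50 and Slc2a5 at -0.96. On day 14 against sham only Slc2a5 was called (-1.25, list median -0.62), and 5 of 10 when day 2 library 3 was left out of the fit, where 14.4% of all genes were called.

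Of 12 lysosomal and osteoclast genes that MITF and its relatives drive, 10 were tested in microglia. On day 2, 3 of the 10 rose and none fell, again about the 31.4% called over all genes (median 0.46, all genes -0.05), among them Gla, a lysosomal galactosidase, at 3.08 and Ctsb, a lysosomal protease, at 1.89. Without day 2 library 3, 4 rose, with Gla at 3.003 and Ctsb at 1.94. By day 14, against sham, 6 of the 10 rose and none fell, where 15.2% of all genes were called in either direction (median 1.77, all genes -0.04). Gpnmb, a lysosomal glycoprotein, stood at 144, 142, 282 and 90.3 CPM on day 14 and was listed at 0 in all 4 sham libraries. Gpnmb thus passed the filter on low counts only through stroke libraries. Ctsb rose by 2.49, Ctsd by 2.11, Lamp1 by 1.44 and Gla by 3.19 on the log2 scale. Mitf itself was lower on day 2. Between day 14 and day 2, where Mitf was called higher, 2 of the 10 rose and 8 were not called, beside 6.93% of all genes (median 0.80, all genes 0.10). Without day 2 library 3, 2 of the 10 rose, beside 6.63% of all genes.

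In monocyte-derived cells 2 of the 12 MITF-family targets rose between day 2 and day 14, where 1.79% of all genes were called without the block and 6.89% with it. Gpnmb went from 452, 748, 413 and 453 CPM to 2276, 1477, 2341 and 1611 CPM. Atp6v0d2, a subunit of the proton pump, went from 0, 6.65, 0.854 and 0 CPM to 79.4, 12.7, 92.9 and 89.9 CPM. Both genes were higher in every day 14 library than in every day 2 library.

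Among 38 other macrophage transcription factors, 29 were tested in microglia. On day 2, 7 fell and 2 rose, 9 of 29 where 31.4% of all genes were called (median -0.66, all genes -0.05), with Prdm1 at -2.46, Maf at -1.60 and Hhex at -1.25, and with Id2 at 1.41 and Hif1a at 0.82. Without day 2 library 3, 7 fell and 1 rose, with Prdm1 at -2.44, Maf at -1.39, Hhex at -1.17 and Hif1a at 0.68, and Id2 was no longer called (1.28, edgeR adjusted p = 0.101). On day 14 against sham Hif1a, the factor of the hypoxia response, rose by 2.10 and Lyl1 fell by 0.84, and the other 27 were not called, where 15.2% of all genes were called. In the fit without day 2 library 3, 1 rose and 4 fell, where 14.4% of all genes were called. Of 12 clock genes, the pathway that the BHLHE repressors belong to, 6 were tested and 3 fell on day 2, where 31.4% of all genes were called. Per1 fell by 1.84, Arntl by 1.70 and Nr1d2 by 1.68 on the log2 scale. Without day 2 library 3 only Nr1d2 of 7 tested fell (-1.64), where 27.5% of all genes were called, with edgeR adjusted p-values of 0.057 for Per1 and 0.077 for Arntl.

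The genes whose mean level over 10 young brain cell types was most like that of a factor are given for 7 of the 8 as a description, since the types share libraries and depth. For Sall1 the nearest was Slc1a3 (Pearson r = 0.964), a glutamate transporter. Bhlhe41 was nearest to Tgfbr1 (0.955), a TGF-beta receptor, and Mitf to Timp2 (0.939) and Slc11a1 (0.936), a metal transporter of phagosomes. Runx1 was nearest to Casp1 (0.962), Mef2a to Tmem68 (0.969), Mef2c to Jpt2 (0.921) and Bhlhe40 to Pfkp (0.895).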

How the data were processed

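The authors deposited, for each of the brain and blood libraries, a table of estimated counts per gene and cell and a table of the authors' cell types. The estimated counts as deposited are fractional (0.0388% to 4.47% of non-zero values were whole), and the step that made them so is not given in the sources used here. Genome mm10 and Seurat are named, without a role, per the submitters' processing notes. The number of genes per cell (a count) and the percentage of mitochondrial counts were deposited by the authors as well and were not used in a test.

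Estimated counts were summed per library and type (at least 20 cells), rounded, filtered with filterByExpr, scaled by TMM and tested with edgeR 4.0.16 (R 4.3.3), quasi-likelihood, over all genes with Benjamini-Hochberg adjustment at 0.05. DESeq2 1.42.0 was an alternative. Fits used all 3 young groups, or the young and aged sham and day 2 groups. Differences between types used exact permutation tests (scipy 1.17.1) with a pseudocount of 5 CPM. Doublets were not called again. The members and gene lists were chosen with earlier results of these data known. The similar genes are those of highest Pearson r with at least 20 CPM in some type. Those of Spi1 are not reported here. Markers were 6 genes per type. The scripts were tested on simulated data, where few of the smaller changes were called and the share of false calls exceeded the threshold for microglia on day 2 and for monocyte-derived cells.

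Libraries pool hemispheres, and p-values measure the spread between libraries. The labels number the libraries but do not say what the numbers mean. They were taken to pair the day 2 and day 14 libraries because, for monocyte-derived cells, every same-numbered pair correlated above 0.1 (0.268 to 0.758), and likewise for dendritic cells, border-associated macrophages and endothelial cells. Pairs of different numbers reached 0.528 in monocyte-derived cells, so the pairing is an assumption taken from these same data. In microglia 3 of 4 pairs did, the lowest at 0.0671. Library totals ran from 819438 to 5855047 counts in the brain. Aged and young tables list different genes, so their levels are not compared directly. The exact intervals and the limit of a count of 0 (3 counts) cover counting error only.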

Additional observations from a re-analysis of the deposited data

Results flagged for a closer look

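A single library stood apart from the other 3 of its group in 7 of 77 groups of 4 examined, where chance alone gives about 1 in 20. In microglia these were Sall1 in sham library 1 at 308 CPM (the others 100.2 to 133 CPM), Bhlhe41 in day 2 library 3 at 0 CPM (90.2 to 101 CPM) and Mef2a in day 14 library 4 at 660 CPM (302 to 347 CPM). In monocyte-derived cells they were Mef2a in sham library 4 at 265 CPM (371 to 381 CPM) and Mitf in sham library 3 at 42.8 CPM (0 to 5.09 CPM). In border-associated macrophages they were Bhlhe40 at 36.7 CPM (0 to 3.57 CPM) and Mitf at 55.0 CPM (35.8 to 39.0 CPM), both in day 2 library 3, the library whose microglia went against their label.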

How the results depend on the processing

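Of 1375 alternative values for 92 results, 1142 kept their direction and side of the threshold and 52 changed sign. The endothelial depth covariate, the fit to the 2 stroke groups alone with the block, and the differences between types without day 2 library 3 were chosen after the data were seen. Causes were not tested. A batch term was not run, since the tables give no batch beyond the library. Few cells limit the border-associated macrophages (20 to 282 a library), the sham monocyte-derived cells (43 to 99) and the microglia of day 2 library 3 (58).

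Genes called in microglia on day 2 (3182) numbered 1654 with the depth covariate and 2094 to 3524 with a library left out. For day 14 against sham (1544) they numbered 3425 without TMM, 851 with the covariate and 791 to 2573 with a library left out. Between day 14 and day 2 (703) they numbered 1157 without TMM, 1057 rounded up, 426 with only the 2 groups and 276 to 735 with a library left out. In monocyte-derived cells (145) they numbered 421 with DESeq2, 89 with cells of at least 800 counts and 45 to 191 with a library left out.

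In border-associated macrophages on day 2 (35) the count was 19 unfiltered, 0 from 800 counts, 12 without the top 5% of cells, 5 with the covariate and 2 to 52 with a library left out. For day 14 against sham (1) it was 14 unfiltered, 0 from 800 counts, 2 with at least 50 cells, 3 with only the 2 groups, 0 with the covariate and 0 to 2 with a library left out. Between the stroke days (11) it was 21 rounded up, 0 from 800 counts, 0 without the top cells, 5 with at least 50 cells, 1 with only the 2 groups and 0 to 12 with a library left out. In dendritic cells on day 2 (44) it was 131 with DESeq2, 124 unfiltered, 111 rounded up, 0 from 800 counts, 8 with the covariate and 16 to 85 with a library left out. For day 14 against sham (67) it was 128, 127, 7 and 18 (unfiltered, rounded up, from 800 counts, covariate) and 15 to 71 with a library left out. Between the stroke days (39) it was 144 with DESeq2, 60 unfiltered, 59 with only the 2 groups and 0 to 35 with a library left out.

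In endothelial cells on day 2 (778) it was 45 from 800 counts, 489 without the top cells and 320 to 991 with a library left out. For day 14 against sham (0) it was 14 with DESeq2, 6 unfiltered, 11 rounded up and 0 to 1 with a library left out. Between the stroke days (654) it was 404 unfiltered, 423 from 800 counts, 410 without the top cells and 324 to 717 with a library left out. In aged microglia (255) it was 480 with DESeq2, 393 unfiltered, 386 rounded up, 0 with only the 2 groups, 61 without the first female day 2 library and 0 to 357 with a library left out, and for the interaction (0) 17 unfiltered, 1 with the covariate and 0 to 1 with a library left out.

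With the library number as a block, calls in monocyte-derived cells numbered 469 over 3 groups and 608 over the 2 stroke groups. In microglia between the stroke days the paired fit to the 2 stroke groups called 1459, Mef2c among them (1.14, edgeR adjusted p = 0.013). The block gave 2 calls on day 2, 1 between the stroke days and 28 in the 2-group fit in border-associated macrophages, 111 and 266 between the stroke days in dendritic cells, and 1 on day 14 against sham in endothelial cells. In the 2-group paired fit Spi1 in microglia was -0.081 and Mef2a in monocyte-derived cells -0.034.

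Log2 fold changes that lost their edgeR call with the depth covariate were, in microglia, -1.25 (Mef2c, day 2), -1.02 (Mitf, day 2) and -0.91 (Mef2a, day 14 against sham). Runx1 on day 2 lost it unfiltered (-0.73) and with only the 2 groups (-0.65), and endothelial Mef2a from 800 counts (-0.94). With a library left out the day 2 values ran from -1.54 to -1.08 for Mef2c, -1.44 to -0.99 for Mitf and -0.77 to -0.59 for Runx1 in microglia, and from -1.32 to -0.93 for endothelial Mef2a. Day 14 against sham ran from -1.57 to -1.11 for Mef2a and -0.25 to 0.072 for Bhlhe41. Between the stroke days it ran from 3.03 to 4.66 for Bhlhe40, -0.32 to 0.25 for Sall1 and -0.14 to 0.13 for Spi1 in microglia, and from -0.26 to 0.12 for Mef2a in monocyte-derived cells.

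The changes of sign were all in values that were not called. In microglia on day 2 these were Bhlhe40 from 800 counts (-0.54) and Spi1 with DESeq2 (-0.074) and rounded up (-0.025). On day 14 against sham they were Bhlhe41 from 800 counts (0.18), without the top cells (0.053), with only the 2 groups (0.0063) and with the covariate (0.17), and Spi1 without TMM (-0.24). Between the stroke days they were Runx1 without TMM (-0.0086), Spi1 without TMM (-0.32) and with only the 2 groups (-0.064), and Sall1 unfiltered (-0.0055), without TMM (-0.31), from 800 counts (-0.043), without the top cells (-0.19) and with only the 2 groups (-0.033). Mef2a in monocyte-derived cells was -0.13 unfiltered, -0.27 from 800 counts, -0.025 with at least 50 cells and -0.020 with the covariate. Aged Runx1 was 0.024 from 800 counts, 0.072 without the top cells, 0.024 without the female sham library and 0.037 without the second female day 2 library. Aged Spi1 was 0.022 rounded up, 0.026 without the top cells, 0.054 without the female sham library and 0.0042 without the first female day 2 library. Mean levels in dendritic cells with each value rounded up were 8.82 CPM for Bhlhe41 and 1.71 CPM for Sall1.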
